A study of Mus musculus with 13 samples.

Results

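All mouse glioblastomas of the series, 10 libraries from tumors driven by either of 2 oncogenes, were compared with 3 libraries of normal brain, which makes 13 of the 13 samples. Each oncogene group counted equally on the tumor side, whatever its spread. The PDGFB tumors (genotype label PDGFB-shP53, n = 5 mice) came from a lentivirus that expresses the growth factor PDGFB and a short hairpin RNA against p53, and the RAS tumors (HrasV12-shp53, n = 5 mice) from one that expresses HRasV12, a constitutively active RAS protein, with the same kind of hairpin. Both viruses were placed in motor cortex, in mice of the CNP-Cre line, in which Cre recombinase is made under the promoter of Cnp, a gene of oligodendrocytes and their precursors, and GFP+ tumor was dissected when the animals reached the clinical endpoint. The hairpin, the virus, the GFP selection and the CNP-Cre background were therefore shared by all tumors and absent from the label of the normal samples, which gives the genotype as WT, so that what the oncogenes did and what these shared features did cannot be told apart here. The normal samples are titled NBT-M1, NBT-F1 and MBT-F2. Their brain region, age and number of animals are not given in the sources used here, and the text on dissection says that normal brain was trimmed off the tumors without saying whether these 3 samples are that tissue. All RNA was polyA RNA. The comparison asks which changes from normal brain the tumors of both oncogenes have in common.

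PDGFB binds the receptor PDGFRA on oligodendrocyte precursors and drives them to divide, and HRAS passes the signal of such receptors on to the ERK kinase cascade. p53 halts the cell cycle or triggers cell death when DNA is damaged or oncogenes are active, and gliomas of humans and mice often lose its function. A glioblastoma that grows in cortex brings dividing, progenitor-like cells, new vessels and macrophages into a tissue whose RNA otherwise comes mostly from neurons, astrocytes and myelinating oligodendrocytes. In RNA from whole tissue, fewer cells of a type and less RNA per cell cannot be told apart.

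A gene was called at an adjusted p under 0.05 (edgeR's quasi-likelihood test, two-sided, over 7722 genes, Benjamini-Hochberg adjustment) and is named here as common to the tumors when, besides, all 10 tumor libraries lay on the same side of all 3 normal libraries. Levels are CPM (counted reads of a gene scaled to a common library total), adjusted by edgeR's TMM factors, given as mean ± SD. Changes are log2 fold changes ± standard error, the mean of both tumor groups minus normal. A gene unread in normal brain could enter the test through its tumor reads alone. List counts and medians with such genes depend in part on that.

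Counted reads numbered 529162 to 643055 per library, of 13952738 to 15607754 reads. In the authors' counting, 95.2% to 95.7% of the uniquely mapped reads were given to no gene. Genes with an opposite exon, meaning that the other strand carries an exon of a second gene over one of theirs (GENCODE M21 annotation, GRCm38), were 16.1% of the genes and held 84% of the counted reads, 187 reads per kilobase of exon against 13.2 for genes with nothing annotated opposite them. The strand setting of the counting is not given in the sources used here, but counts lie mostly on the strand opposite each gene. Reads under a gene with an opposite exon can therefore belong largely to the opposite gene, and that gene is named with each one below. RAS tumor 2 stood apart from the other RAS tumors on the first principal component of log2 CPM, at -11.3 against -64.8 to -86.7 for the other 4 RAS tumors, -11.2 to 18.2 for the PDGFB tumors and 108.9 to 112.6 for the normal samples. The 3 normal samples held markers of neurons, astrocytes and myelin at the levels given below.

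The targeted genes gave a limited check of the labels. Trp53, the target of the hairpin, had 0 to 5 reads in any library, too few to tell a knockdown. Reads under Pdgfb numbered 4, 21, 5, 11 and 8 in PDGFB tumors 1 to 5, while RAS tumors had 1 to 4 and normal samples 3 to 6, so 2 PDGFB libraries lay within the normal range. Hras stood at 16.1 ± 7.62 CPM in PDGFB tumors (n = 5), 25.2 ± 10.3 in RAS tumors (n = 5) and 36.1 ± 5.84 in normal brain (n = 3), a log2 difference of -0.83 ± 0.35 that was not called (edgeR adjusted p = 0.0572). Whether the viral inserts carry sequence counted under Pdgfb or Hras is not given in the sources used here. Cnp, whose exons lie opposite Dnajc7, did not pass the test either (log2 difference -0.24 ± 0.14, edgeR adjusted p = 0.167).

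Of the 7722 genes tested, 1859 were higher in tumors (24.1%) and 2193 were lower (28.4%), so 52.5% were called in either direction. Common genes made up 1079 of those higher (14% of the genes tested) and 1702 of those lower (22%). The common set was therefore larger on the side of loss, and 77.6% of the genes called lower were lower in every tumor, against 58% of those called higher. In both tumor groups 811 of the common higher genes and 1346 of the common lower genes were more than 2-fold from normal, and 84 and 42 more than 16-fold. Some 38 of the common higher genes had no read in any normal library. The median log2 fold change over all genes tested was 0.02, and it was 1.85 over the common higher and -2.07 over the common lower genes, as the choice of these genes sets. Genes of every annotation class took part: 15.1% of genes with an opposite exon were common higher and 23.5% common lower, against 13.7% and 18.6% of genes with nothing opposite.

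**Figure D1:**
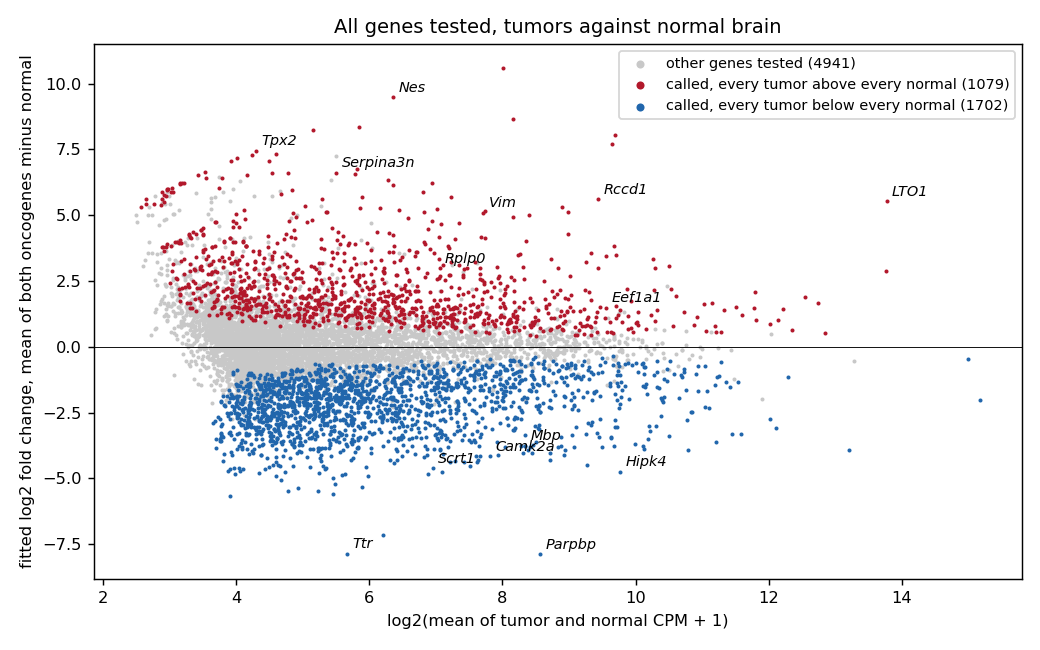
All 7722 genes tested, with log2 of the mean of tumor and normal CPM (+1) on the x axis and the fitted log2 fold change of both oncogenes' mean minus normal on the y axis; red points are the 1079 genes called with every tumor above every normal sample and blue points the 1702 called with every tumor below. The fold of genes with no read in normal brain (for example Nes and Tpx2) depends on the prior count of the fit, and labelled genes such as LTO1, Rccd1 and Parpbp have an opposite exon.

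The tumors of both oncogenes did not carry these common changes to the same extent. In the direct test of PDGFB against RAS tumors, 2476 of 7722 genes were called (32.1%). Among the common higher genes 445 (41.2%) differed between the oncogenes, 355 of them with RAS tumors farther from normal and 90 with PDGFB tumors farther. Among the common lower genes 346 (20.3%) differed, 292 with RAS tumors farther and 54 with PDGFB tumors farther. The 95% interval of the difference between oncogenes lay within 1 log2 unit either way for 427 common higher and 424 common lower genes. For the others without a call, the interval still holds a 2-fold difference between the oncogenes.

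Single tumors also differed in how near they lay to normal brain. For the common higher genes, PDGFB tumor 4 was the tumor nearest to normal in 216 cases (20%) and PDGFB tumor 2 in 165 (15.3%). For the common lower genes it was RAS tumor 2 in 484 cases (28.4%) and PDGFB tumor 4 in 392 (23%). RAS tumor 2 held the highest RAS level of several neuronal and glial genes, such as Snap25 with 70.3 CPM against 0 to 19.3 in the other RAS tumors, and the share of normal tissue in each dissected piece was not tested. Without RAS tumor 2 and PDGFB tumor 4 together, 2034 genes were called higher and 2148 lower, and 1255 and 1709 were common.

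**Figure D2:**
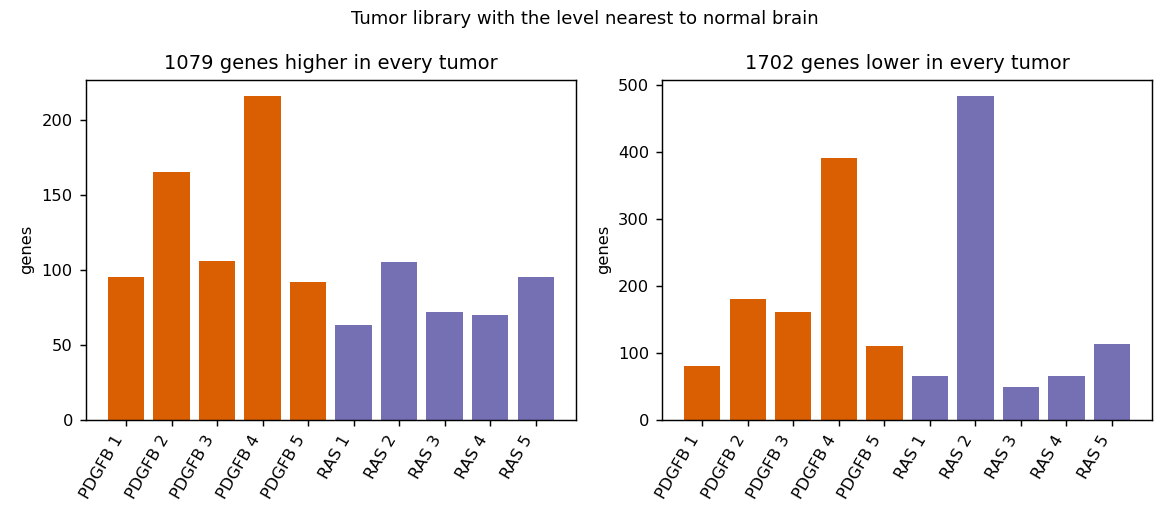
Number of common genes, on the y axis, for which each tumor library had the level nearest to normal brain; left, the 1079 higher genes, right, the 1702 lower genes, orange for PDGFB and violet for RAS tumors. PDGFB tumor 4 leads on the left with 216 genes and RAS tumor 2 on the right with 484.

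Most genes of cell division tested were higher in the tumors. Of 20 mitosis genes listed, 11 were measured well enough to test, 8 were higher (7 of them common) and 0 were lower. Of all genes tested, 24.1% were higher (14% common) and 28.4% lower (22% common). The median log2 fold change of the 11 was 3.66 (3.29 with genes unread in normal brain set to their bound). Members such as Cdk1 and Tpx2, unread in normal brain, could be tested through their tumor reads alone, and 9 listed members were not tested. Cdk1, the kinase that starts mitosis (ENSMUSG00000019942, chr10:69335146-69352938, minus strand, nothing annotated opposite), had 30.5, 7.76, 22.8, 19.0 and 35.3 CPM in PDGFB tumors 1 to 5, 26.9, 16.7, 14.5, 12.3 and 10.5 CPM in RAS tumors 1 to 5, and 0 reads in the 3 normal samples. Tumors and normal samples did not overlap, and Cdk1 was at least 9.75-fold higher, counted against 3 reads over the normal group (edgeR adjusted p = 0.000131). Tpx2, which organizes the mitotic spindle (chr2:152847964-152895321, plus strand), had 47.3, 17.1, 50.4, 26.9 and 44.9 CPM in PDGFB tumors, 38.7, 30.1, 21.8, 22.8 and 73.7 CPM in RAS tumors and no read in normal brain. It was at least 18.8-fold higher (edgeR adjusted p = 3.41e-05). The level of Tpx2 in the lowest tumor, PDGFB 2, was still far from the normal samples, all at 0. Top2a, the topoisomerase that untangles replicated chromosomes, stood at 64.4 ± 24.3, 40.1 ± 20.9 and 2.54 ± 2.20 CPM in PDGFB, RAS and normal samples (log2 4.16 ± 0.67, edgeR adjusted p = 5.9e-05). Mki67, the proliferation marker, differed between oncogenes, with 62.0 ± 22.8 CPM in PDGFB and 20.2 ± 4.68 in RAS tumors (edgeR adjusted p = 0.001), both above 3.34 ± 1.24 CPM in normal brain. The members without a call were Aurka and 2 genes with an opposite exon, Nusap1 (opposite Oip5) and Prc1 (opposite Rccd1). Reads under Rccd1, which can belong to Prc1, rose 49.0-fold, so Prc1 cannot be taken as unchanged.

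Promoters of mitosis genes often hold 2 short elements read by cell cycle complexes, the CHR element (TTTGAA) and the CCAAT box, and those of 3 genes that rose in all tumors are shown to let them be seen in place. Each line gives the 250 bases before the gene's start, 5′ to 3′ on the gene's strand (RefSeq, GRCm38.p6), with capitals for TTTGAA and CCAAT on either strand (their reverse complements read TTCAAA and ATTGG).
Cdk1 (chr10:69352913-69353162, minus): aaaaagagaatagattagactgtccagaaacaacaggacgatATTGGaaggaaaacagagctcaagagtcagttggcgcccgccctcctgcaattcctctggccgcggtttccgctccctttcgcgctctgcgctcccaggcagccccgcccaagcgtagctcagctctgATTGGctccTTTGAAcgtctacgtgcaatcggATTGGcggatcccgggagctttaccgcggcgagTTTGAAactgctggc
Top2a (chr11:99024190-99024439, minus): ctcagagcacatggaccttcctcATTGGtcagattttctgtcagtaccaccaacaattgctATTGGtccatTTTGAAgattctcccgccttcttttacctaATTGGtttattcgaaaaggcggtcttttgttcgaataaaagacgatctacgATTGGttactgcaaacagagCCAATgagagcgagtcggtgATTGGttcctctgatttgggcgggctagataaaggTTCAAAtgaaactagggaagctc
Mki67 (chr7:135716380-135716629, minus): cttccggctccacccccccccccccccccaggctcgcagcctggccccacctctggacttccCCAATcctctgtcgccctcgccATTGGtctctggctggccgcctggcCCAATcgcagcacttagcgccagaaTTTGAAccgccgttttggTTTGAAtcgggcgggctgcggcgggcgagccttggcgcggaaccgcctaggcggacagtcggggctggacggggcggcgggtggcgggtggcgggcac
All 3 windows hold both motifs, but other genes were not chosen for display. Ccnb1 and Cenpf, mitosis genes also higher in every tumor, hold CCAAT and no TTTGAA in the same window. TTTGAA was found in 6 of the 17 mitosis genes with a promoter in the table (35.3%) and in 16.3% of all 27025 promoters, and CCAAT in 14 of 17 (82.4%) against 34.5% of all. A match of these letters is a description of the window and not evidence of a bound factor.

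Most DNA replication genes tested were higher as well. Of 20 listed, 12 were tested, 9 were higher (6 common) and 0 lower, against 24.1% higher (14% common) of all genes tested. Their median was 2.66 (1.91 without PDGFB tumor 1, 3.49 over members with no exon opposite). Mcm2 and Mcm3, unread in normal brain, could be tested through their tumor reads alone. Mcm3, a subunit of the helicase that opens replication origins, had 19.6 ± 7.96 CPM in PDGFB and 12.8 ± 5.17 in RAS tumors and no read in normal brain, at least 7.97-fold higher (edgeR adjusted p = 0.000151). Mcm2, of the same complex, reached 19.3 ± 6.56 and 7.06 ± 4.66 CPM, at least 5.82-fold higher, and differed between oncogenes (edgeR adjusted p = 0.0335). Pcna, the sliding clamp of the polymerases, rose from 12.7 ± 3.07 to 45.7 ± 21.3 and 30.8 ± 7.41 CPM. Mcm7 (opposite Ap4m1) and Gins2 (opposite Gse1), each with an opposite exon, were not called.

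Chromatin and oncofetal genes, which are active in the embryo and mostly silent in adult brain, were mostly higher among those tested. Of 14 listed, 8 were tested, 7 higher (5 common) and 1 lower, against 24.1% higher (14% common) of all genes tested. Their median was 4.34 (3.09 with bounds, 5.43 without normal sample 3, 5.41 over members with no exon opposite). It was 3.135 with all genes of any read tested, 3.59 with a minimum of 1 CPM in 3 libraries and 3.67 with limma. Hmga2 and Igf2bp2, unread in normal brain, could be tested through their tumor reads alone. Hmga2, an architectural chromatin protein of embryonic tissue (opposite 1700006J14Rik), had 25.9, 21.7, 32.5, 19.0 and 19.3 CPM in PDGFB tumors, 219, 115, 195, 186 and 300 CPM in RAS tumors and none in normal brain. Every tumor was above every normal sample, and the RAS tumors were all above the PDGFB tumors (log2 PDGFB minus RAS -3.09, edgeR adjusted p = 2.06e-06). Igf2bp2, an RNA-binding protein of fetal tissue, had 12.3 ± 6.45 and 20.7 ± 6.26 CPM and no read in normal brain, at least 8.05-fold higher. Ezh2, the methyltransferase of the Polycomb complex (opposite Gm26625), stood at 28.1 ± 6.25, 17.0 ± 3.54 and 1.24 ± 2.15 CPM. The member that fell, Igf2bp3, lies opposite an exon of Malsu1 (log2 -1.96 ± 0.35), so that its reads can belong to either gene.

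Most progenitor genes tested were higher, among them intermediate filaments of immature glia. In the neural progenitor list 12 of 18 members were tested, 8 were higher (4 common) and 1 lower, with a median of 1.46. Of all genes tested 24.1% were higher (14% common) and 28.4% lower. Between the oncogenes 8 of the 12 differed, against 32.1% of all genes tested. Nes, which encodes nestin (chr3:87971078-87980451, plus strand, nothing opposite), had 96.0, 135.1, 109, 98.2 and 94.7 CPM in PDGFB tumors, 241, 159, 164, 238 and 291 CPM in RAS tumors and no read in 3 normal samples. All RAS tumors lay above all PDGFB tumors, and all tumors were at least 76.8-fold higher as a mean than 3 reads over the normal group (edgeR adjusted p = 3.47e-08). Vim, which encodes vimentin, rose from 10.4 ± 5.56 CPM to 233 ± 32.6 in PDGFB and 580 ± 193 in RAS tumors (log2 5.10 ± 0.37, edgeR adjusted p = 2.73e-08). Sox4 (opposite Gm26735) and Sox9, transcription factors of progenitors, rose by 1.46 ± 0.21 and 1.45 ± 0.56 log2 units. Dcx, which marks migrating neuroblasts, was not called and differed between the oncogenes, with 16.8 ± 5.001 CPM in PDGFB, 1.06 ± 1.61 in RAS and 2.90 ± 5.02 in normal samples. Dll1, a Notch ligand, fell by 3.17 ± 0.59 on the log2 scale and lies opposite A930024N18Rik.

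Oligodendrocyte precursor genes were a shared change only in part. Of 16 members tested, 7 were higher (4 common) and 1 lower, against 24.1% higher (14% common) and 28.4% lower of all genes tested. The median against normal brain was 2.46 for PDGFB tumors and -0.02 for RAS tumors. Between the tumors 13 of the 16 differed, against 32.1% of all genes tested. The common members were Pdgfra (opposite Gm42802), Cspg4, Sox10 and Vcan. Cspg4, the proteoglycan NG2 of precursors and pericytes, had 30.5, 34.2, 40.7, 23.8 and 28.9 CPM in PDGFB tumors, 6.73, 18.4, 5.45, 8.76 and 3.51 CPM in RAS tumors, and 0, 2.17 and 0 CPM in normal samples. The ratio of counts was 31.2 (exact 95% interval 5.50 to 1241, counting error only). Vcan, the matrix proteoglycan versican, was similar in mean in the tumor groups, at 41.3 ± 7.92 and 49.5 ± 33.8 CPM against 7.15 ± 2.54, with RAS tumor 5 alone at 108.8 CPM. Sox10, the lineage factor of oligodendrocytes, stood at 129 ± 36.4, 68.8 ± 35.9 and 14.2 ± 6.59 CPM. Olig2, which specifies the lineage, was not called for both together (edgeR adjusted p = 0.063), with 61.8 ± 8.35 CPM in PDGFB, 8.42 ± 6.55 in RAS and 11.2 ± 2.49 in normal samples.

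The common higher genes without an opposite exon and without a called difference between oncogenes included genes of several functions. Serpina3n, an acute-phase protease inhibitor made by reactive astrocytes (chr12:104406729-104414329, plus strand), had 64.0, 59.0, 86.2, 63.4 and 59.4 CPM in PDGFB tumors, 79.1, 169, 185, 70.1 and 47.4 CPM in RAS tumors and 0, 0 and 1.86 CPM in normal samples. The ratio of counts was 131.5 (exact 95% interval 23.5 to 5202), and the interval is wide because normal brain held so few reads (edgeR adjusted p = 2.18e-06). Hmox1, heme oxygenase, ranged from 33.3 to 77.7 CPM over the tumors and had 0, 2.17 and 0 CPM in normal brain (ratio of counts 82.6, 14.7 to 3271). Hlx, a homeobox factor, and Cd93, a receptor of endothelial and myeloid cells, had no normal read and were at least 14.1-fold and 10.7-fold higher.

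Tagln2, an actin-binding protein, had 76.2, 90.1, 97.6, 53.9 and 88.3 CPM in PDGFB tumors, 87.5, 40.2, 96.4, 70.1 and 75.5 CPM in RAS tumors, and 1.95, 2.17 and 1.86 CPM in normal samples (ratio of counts 39.0, exact 95% interval 13.3 to 190). Fgfrl1, a receptor of the FGF family without a kinase domain, Moxd1, a monooxygenase, and Ifit2, an interferon-induced gene, had count ratios of 48.9, 40.1 and 35.2. Lima1, an actin-bundling protein, was 16.9-fold higher (log2 4.08 ± 0.57), and Tbc1d1, a Rab GTPase activator, had a count ratio of 20.3 (exact 95% interval 5.54 to 169).

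**Figure D3:**
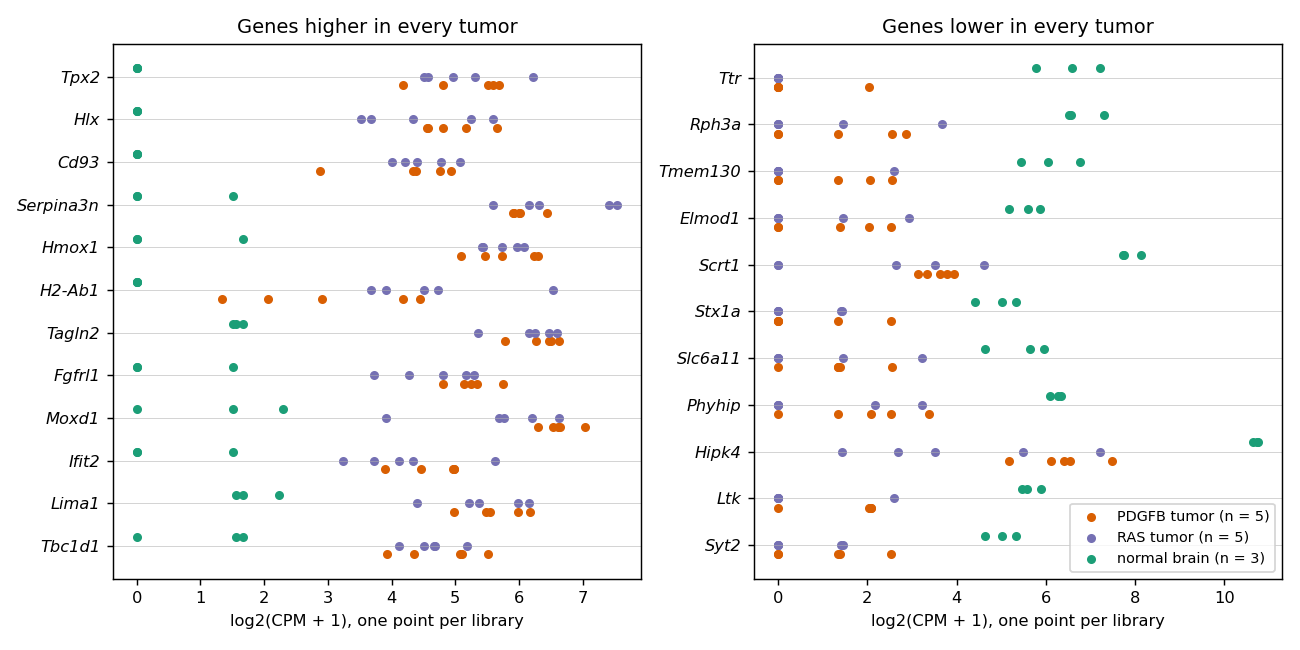
Level of 12 higher (left) and 11 lower genes (right) in each library, as log2(CPM + 1) on the x axis with 1 point per library; orange, PDGFB tumors, violet, RAS tumors, green, normal brain. By the rule that chose them no tumor point overlaps a normal point, and in the right panel the rightmost RAS point is often RAS tumor 2.

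Large shared gains also lay under genes with an opposite exon. LTO1 (chr7:144915100-144931701, plus strand), whose exons overlap the end of Ccnd1 on the minus strand (chr7:144929931-144939925), held 28340, 17957, 29566, 25570 and 29903 CPM in PDGFB tumors, 24611, 26687, 40852, 23795 and 25710 CPM in RAS tumors and 664, 576 and 519 CPM in normal samples. That is a 46.5-fold difference (log2 5.54 ± 0.24, edgeR adjusted p = 7.79e-11), with no called difference between oncogenes. Reads under Ccnd1 itself, the D-type cyclin that lets cells enter the cycle, rose 6.28-fold, from 76.1 ± 2.14 to 459 ± 66.6 and 501 ± 39.4 CPM. Rccd1, opposite the mitotic gene Prc1, rose 49.0-fold, to 1611 ± 599 and 1105 ± 146.5 CPM from 26.9 ± 17.4 CPM, whereas reads under Prc1 did not pass the test (37.4 ± 11.1, 26.3 ± 10.3 and 16.2 ± 8.52 CPM). Cdc23, opposite the mitotic kinesin gene Kif20a, rose 32.0-fold, Dnah11, opposite Cdca7l, 29.7-fold, Zfp276, opposite the DNA repair gene Fanca, 23.1-fold, and Nrm, opposite Ppp1r18os, 38.9-fold. With reads given to the opposite gene where that is a single protein-coding one, the log2 fold changes were 2.72 for LTO1, 0.99 for Rccd1, 0.83 for Cdc23 and 1.17 for Zfp276, and 5.604 for Ccnd1. In each of these pairs the counts alone do not assign single reads, while counts here lie mostly on the strand opposite each gene.

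Most genes tested of the protein-making machinery were higher in the tumors. Of 17 cytosolic ribosomal protein genes tested of 18 listed, 16 were higher (15 common) and 0 lower, against 24.1% higher (14% common) of all genes tested. Their median was 1.67 (1.27 in PDGFB and 2.095 in RAS tumors against normal). Between the oncogenes 10 of the 17 differed, against 32.1% of all genes tested. Rplp0, a protein of the ribosomal stalk, had 166, 183, 181, 127 and 170 CPM in PDGFB tumors, 259, 174, 264, 359 and 477 CPM in RAS tumors and 23.5, 19.6 and 40.9 CPM in normal samples (log2 2.99 ± 0.34, edgeR adjusted p = 1.83e-06). Rps9 rose 4.62-fold, with 124.5 ± 31.2, 165 ± 64.7 and 30.7 ± 8.99 CPM. In the nucleolus and translation list 10 of 13 members tested were higher (7 common) and 0 lower, with a median of 1.28. Npm1, the nucleolar chaperone of ribosome assembly, stood at 126 ± 20.4, 180.5 ± 80.4 and 29.7 ± 3.30 CPM, and Eif5a, a translation factor, at 89.6 ± 22.8, 148 ± 36.0 and 30.3 ± 3.75 CPM. Eef1a1, the elongation factor, rose by 1.49 ± 0.17 log2 units (edgeR adjusted p = 1.5e-06). The summed ribosomal level ran from 1367 to 2041 CPM in PDGFB tumors, 1838 to 5340 in RAS tumors and 785 to 830.5 in normal samples, with RAS tumor 5 highest. Splicing factors moved less, with 7 of 16 higher (6 common) and a median of 0.63, where 24.1% of all genes tested were higher (14% common). Among them Hnrnpa1 rose 3.15-fold, and Ptbp1 (opposite Plppr3), the repressor of neuronal exons, rose 2.67-fold, or by 3.66 log2 units with reads given to the opposite gene.

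Matrix genes differed in amount between the oncogenes, and 14 of the 17 tested were called in that test, all 14 with RAS tumors higher. Of all genes tested 32.1% were called between the oncogenes. Of 17 members tested, 16 were higher (8 common) and 0 lower, against 24.1% higher (14% common) of all genes tested. Their median was 3.96 (2.43 in PDGFB and 5.07 in RAS tumors against normal). Cd44, the hyaluronan receptor, had 15.2, 10.9, 14.6, 6.34 and 6.42 CPM in PDGFB tumors, 101, 56.9, 54.5, 75.3 and 87.8 CPM in RAS tumors and no read in normal brain, at least 14.3-fold higher (edgeR adjusted p = 7.54e-06). Its PDGFB and RAS levels did not overlap (log2 PDGFB minus RAS -2.79, edgeR adjusted p = 1.32e-05). Tnc, the matrix protein tenascin C (opposite 8030451A03Rik), stood at 61.1 ± 22.3, 276 ± 82.0 and 3.37 ± 1.33 CPM, and Fn1, fibronectin (opposite Apol7d), rose by 3.67 ± 0.60 log2 units. Col4a1, a basement membrane collagen whose exons lie opposite Col4a2, stood at 121 ± 23.4, 111 ± 41.8 and 7.18 ± 2.72 CPM. Endothelial and pericyte genes were mostly below the filter, with 4 of 16 tested. Eng (opposite Fpgs), Cd93 and Cspg4 were higher and Rgs5 was not called. Their median of 3.23 dropped to 0.92 when all genes with any read were tested, and to between 1.17 and 2.66 without 1 of the normal samples.

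Most macrophage genes tested were higher against normal brain for both oncogenes together, with RAS tumors above PDGFB tumors. Of 12 macrophage and microglia members tested, 9 were higher (7 common) and 0 lower, with a median of 2.22. The shares over all genes tested were 24.1% higher (14% common) and 32.1% called between the oncogenes. All 12 differed between the oncogenes with RAS tumors higher, and Csf1r (opposite Hmgxb3), Fcer1g and Apoe were not called against normal. Lgals3, galectin 3, had 4.57, 10.9, 1.63, 4.75 and 9.63 CPM in PDGFB tumors, 62.3, 23.4, 36.4, 73.6 and 110.6 CPM in RAS tumors and no normal read, at least 9.88-fold higher, and the oncogenes differed (edgeR adjusted p = 0.000143). Spp1, osteopontin, rose by 5.24 ± 0.75, Gpnmb was at least 6.30-fold higher, and C1qa, of the complement, rose by 1.93 ± 0.41 log2 units. The summed macrophage level was 561 to 667 CPM in PDGFB tumors, inside or below the 645 to 743 of normal samples, and 1779 to 3805 in RAS tumors. Of 5 homeostatic microglia genes tested, Olfml3 and Sparc were higher and 0 were lower, with a median of 0.43 (1.14 without RAS tumor 5). Sparc, a matrix protein that is also in the matrix list, was called in RAS and not in PDGFB tumors against normal, at 80.5 ± 24.1, 630 ± 224 and 79.0 ± 14.3 CPM (log2 PDGFB against normal 0.03, edgeR adjusted p = 0.95), and its call was lost with the 10 tumors as 1 group (edgeR adjusted p = 0.0639). The lymphocyte and neutrophil list had 0 of 15 members tested, and summed to 1.55 to 6.34, 8.41 to 15.8 and 1.86 to 7.82 CPM in PDGFB, RAS and normal samples.

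In MHC class I and interferon genes, 7 of 9 members tested were higher (5 common) and 0 lower, against 24.1% higher (14% common) of all genes tested. Their median was 3.19 (4.25 without normal sample 2). B2m, the light chain of class I, rose from 12.7 ± 2.20 to 60.4 ± 26.9 and 264 ± 73.1 CPM. H2-D1, a class I heavy chain, stood at 34.0 ± 23.3, 137 ± 88.5 and 3.78 ± 3.72 CPM, with RAS tumor 5 at 295 CPM. H2-Ab1 and Cd74, of antigen presentation by class II, had no read in normal brain and were at least 8.99-fold and 6.87-fold higher. For Cd74 the PDGFB tumors alone were not called against normal (edgeR adjusted p = 0.084), with a mean of 4.12 CPM against 45.6 in RAS tumors. Of the 5 class II genes tested, H2-DMa (opposite Brd2) and Ciita (opposite Dexi) were lower. The list's median of 5.42 was 2.16 with genes unread in normal brain set to their bound, and between 2.67 and 2.81 without RAS tumor 2, 3 or 5. The summed class II level overlapped between groups, at 241 to 312 CPM in PDGFB tumors, 156 to 421 in RAS tumors and 272 to 291 in normal samples. The normal sum came from members other than H2-Ab1 and Cd74, among them H2-DMa and Ciita, whose reads can belong to Brd2 and Dexi. It is therefore no measure of class II genes alone. How much of these gains came with the macrophages was not tested.

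**Figure D4:**
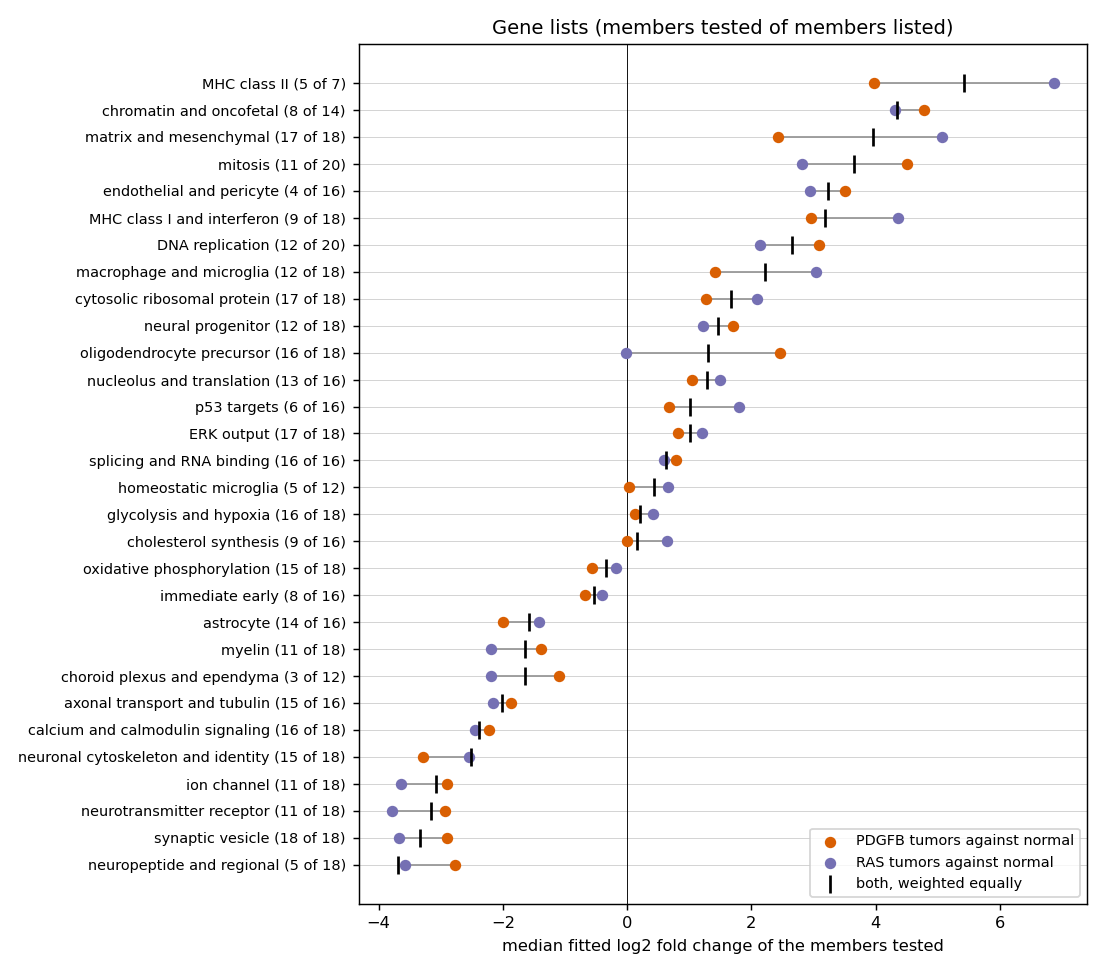
Median fitted log2 fold change against normal brain of the members tested of each gene list, for PDGFB tumors (orange), RAS tumors (violet) and both weighted equally (black bar). PDGFB and RAS medians lie on the same side of 0 for mitosis, ribosomal, matrix and neuronal lists, and the oligodendrocyte precursor list has 2.46 in PDGFB tumors and -0.02 in RAS tumors.

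Most neuronal genes tested were lower in the tumors, where 28.4% of all genes tested were lower (22% common). In the neuronal identity list all 15 members tested were lower (11 common) and in the synaptic vesicle list 17 of 18 were lower (17 common), with medians of -2.51 and -3.33. Of the ion channel genes 11 of 11 tested were lower (10 common), of the neurotransmitter receptors 10 of 11 (9 common), of the calcium and calmodulin genes 16 of 16 (15 common) and of the axonal transport and tubulin genes 14 of 15 (14 common). Their medians were -3.08, -3.15, -2.38 and -2.02. Over members with no exon opposite the identity median was -3.42. The summed identity level, however, was 380 to 801 CPM in PDGFB tumors, 4174 to 9503 in RAS tumors and 6566 to 7131 in normal samples, so RAS tumors spanned the normal range. Most of that sum was Nefm, a neurofilament gene opposite Nefl, with 267 ± 86.9, 5437 ± 2219 and 4752 ± 317 CPM, and Nefm was not called in RAS tumors against normal (log2 0.19, edgeR adjusted p = 0.58). The receptor without a call was Grm5. No member of the identity, channel, receptor or calcium lists was called higher. Rph3a, a Rab effector on synaptic vesicles (chr5:120940499-121010092, minus strand), had 0, 1.55, 4.88, 6.34 and 0 CPM in PDGFB tumors, 0, 11.7, 0, 1.75 and 0 CPM in RAS tumors and 93.8, 156 and 91.1 CPM in normal samples. It fell by 5.31 ± 0.53 on the log2 scale (39.8-fold, edgeR adjusted p = 5.35e-07), and the highest tumor, RAS 2, lay below all normal samples. Camk2a, the kinase of glutamatergic synapses, had 9.15, 26.4, 30.9, 44.4 and 12.8 CPM in PDGFB tumors, 1.68, 92.1, 9.09, 3.50 and 5.27 CPM in RAS tumors and 410, 443 and 420 CPM in normal samples (log2 -4.16 ± 0.55). Snap25, of the vesicle fusion complex, fell by 4.13 ± 0.59 and Nefh, a neurofilament, by 3.89 ± 0.50 on the log2 scale.

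Other called members were channel, receptor and transport genes. Scn1a and Scn3b, subunits of sodium channels, fell by 4.01 ± 0.57 and 4.59 ± 0.59. Gabbr2, a GABA receptor subunit, and Grin2b, an NMDA receptor subunit (opposite Gm14329), fell by 4.22 ± 0.54 and 4.19 ± 0.66. Kif5a, a motor of axonal transport, went from 656 ± 58.1 CPM to 55.2 ± 30.9 and 28.3 ± 37.9. Nrgn, a calmodulin-binding protein of dendrites, fell by 3.83 ± 0.40 and Cck, a neuropeptide, by 3.88 ± 0.66. Without RAS tumor 2 the log2 fold changes were farther from 0, at -4.91 for Snap25, -5.14 for Camk2a, -6.31 for Rph3a, -4.95 for Scn1a and -5.68 for Grin2b. In the neuropeptide and regional list 4 of 5 members tested were common lower. Reads under the other, Pmch (opposite Parpbp), were higher, while those under Parpbp fell 237-fold, so the direction of Pmch is not settled. The lone synaptic member that rose, Unc13a, lies opposite Colgalt1 and gained 1.37 ± 0.23 log2 units. The lone tubulin member that rose, Tuba1a, expressed in young neurons and progenitors and without an opposite exon, went from 176 ± 30.5 to 395 ± 41.2 and 393 ± 76.5 CPM (edgeR adjusted p = 8.3e-05).

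Among common lower genes without an opposite exon, the largest even losses were of Ttr, transthyretin of the choroid plexus, which had 1 tumor with any read (PDGFB 2 at 3.11 CPM) and 147, 95.6 and 53.9 CPM in normal samples (ratio of counts 297, exact 95% interval 80.7 to 2472). Ttr is 1 of 3 tested members of the choroid plexus list of 12, and the others, Enpp2 (opposite Gm26684) and Rarres2 (opposite Lrrc61), fell by 1.65 ± 0.31 and 0.86 ± 0.22 log2 units. Reads under Hipk4, a kinase gene (chr7:27523267-27531175, plus strand), were many in normal brain, at 1735, 1697 and 1601 CPM. They stood at 35.1, 68.3, 92.7, 177 and 83.5 CPM in PDGFB tumors and 1.68, 147, 5.45, 10.5 and 43.9 CPM in RAS tumors. No gene is annotated opposite, but counts lie mostly on the opposite strand, and which transcript gave these reads was not tested. Reads under Hipk4 fell 27.0-fold (log2 -4.75 ± 0.54), and the highest tumors were PDGFB 4 and RAS 2. Scrt1, a neuronal zinc-finger repressor, went from 236 ± 38.6 to 11.1 ± 2.65 and 7.84 ± 9.74 CPM, which is 24.6-fold lower (edgeR adjusted p = 1.87e-07). Tmem130, Stx1a, Ltk, Syt2, Elmod1, Phyhip and Slc6a11 were 44.3, 26.2, 26.9, 24.9, 23.3, 22.9 and 20.6-fold lower. Stx1a encodes a syntaxin of vesicle fusion, Syt2 a calcium sensor and Slc6a11 a GABA transporter.

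Reads under genes with an opposite exon fell as well. Parpbp (chr10:88091432-88146941, minus strand), opposite the hypothalamic neuropeptide gene Pmch, held 991, 572 and 697 CPM in normal samples and 0 to 8.76 CPM in tumors, a 237-fold drop (log2 -7.89 ± 0.39, edgeR adjusted p = 3.43e-10). Reads under Pmch went the other way, from 8.63 ± 1.17 to 112 ± 33.3 and 63.8 ± 13.5 CPM. When the reads of genes that overlap exactly 1 protein-coding gene on the opposite strand were given to that gene, Parpbp carried a log2 fold change of 3.32 instead. Myocos, opposite Myoc, fell 142-fold, from 144 ± 7.31 CPM to 0.325 ± 0.727 and 1.69 ± 2.90. Scn9a, opposite Gm13629, fell 37.0-fold and Krt12, opposite A830036E02Rik, 31.5-fold. Mhrt, whose exons lie opposite Myh7, fell 27.3-fold, and Myh7, opposite Gm31251, had a count ratio of 84.2 (exact 95% interval 21.9 to 718). With the same reassignment Krt12 stood at -3.30 and Myh7 at -4.89 on the log2 scale.

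Several myelin and astrocyte genes were lower in the tumors, where 28.4% of all genes tested were lower (22% common). Of 11 myelin members tested, 6 were lower (6 common) and 1 higher, with a median of -1.65 (-3.13 over members with no exon opposite and -3.08 with reads given to the opposite gene). Mbp, myelin basic protein, had 38.1, 32.6, 58.6, 71.3 and 25.7 CPM in PDGFB tumors, 26.9, 93.7, 18.2, 24.5 and 54.4 CPM in RAS tumors and 627, 480 and 695 CPM in normal samples (log2 -3.75 ± 0.32, edgeR adjusted p = 1.45e-07). Mal, a membrane protein of myelin, fell by 3.83 ± 0.40. The member called higher was Apod, which rose by 1.09 ± 0.44. Of 14 astrocyte members tested, 9 were lower (6 common) and 1 was higher, Sox9. Aldoc, an aldolase of astrocytes, went from 160 ± 43.0 to 19.8 ± 10.9 and 19.1 ± 23.8 CPM, and Slc1a2, the glutamate transporter (opposite Gm13872), from 381 ± 17.8 to 55.8 ± 36.6 and 36.8 ± 42.2 CPM. Gfap and Aqp4, other markers of astrocytes, were not called, with Gfap at 91.4 ± 54.7, 86.9 ± 95.1 and 44.8 ± 20.2 CPM.

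**Figure D5:**
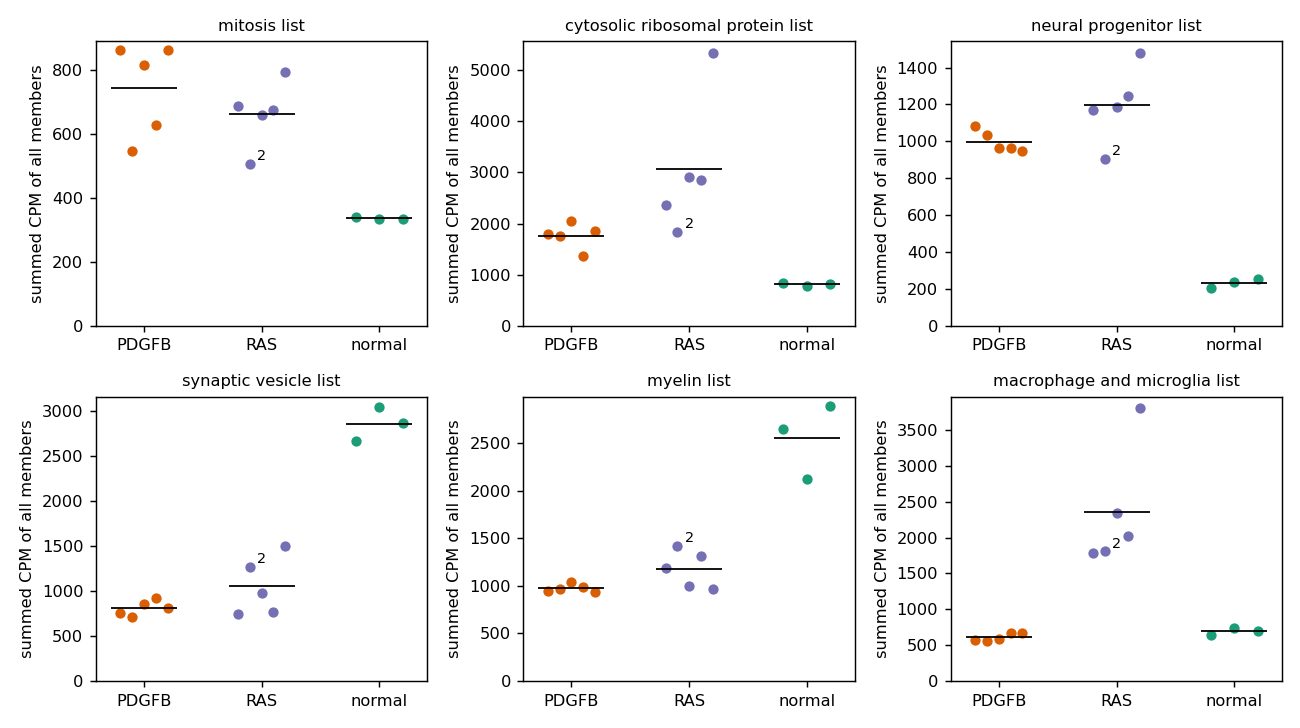
Summed CPM of all members of 6 gene lists, one point per library, with the group mean as a black line and RAS tumor 2 marked; the y axes start at 0. Mitosis, ribosomal and progenitor sums are higher in every tumor than in normal brain, synaptic vesicle and myelin sums are lower in every tumor, and the macrophage sum is 561 to 667 CPM in PDGFB and 1779 to 3805 in RAS tumors. The normal mitosis sum of 332.5 to 340 CPM came mostly from members other than Cdk1, Tpx2, Top2a and Mki67. Sums include members with an opposite exon, whose reads can belong to the opposite gene.

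Signaling and metabolic lists held fewer shared changes, where 24.1% of all genes tested were higher and 28.4% lower. Of 17 ERK output genes tested, 8 were higher (5 common) and 2 lower, with a median of 1.01. Spry4, a feedback inhibitor of receptor signaling, had 12.2, 10.9, 19.5, 15.8 and 19.3 CPM in PDGFB tumors, 23.6, 20.1, 25.5, 33.3 and 35.1 CPM in RAS tumors and 3.91, 4.35 and 0 CPM in normal samples. Dusp6, a phosphatase that acts on ERK, rose by 1.15 ± 0.26 log2 units. The members that fell were Egr1 and Fosl1, the latter opposite Ccdc85b. Of 6 p53 targets tested of 16 listed, 3 were higher, Cdkn1a (opposite AC167363.2), Ccng1 and Phlda3, and Zmat3 was lower. Cdkn1a, the inhibitor of cyclin-dependent kinases, rose 3.60-fold and Phlda3 3.30-fold. With reads given to the opposite gene the log2 fold change of Cdkn1a was 3.01.

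Of 8 immediate early genes tested, 4 were lower (3 common) and Jun (opposite Junos) was higher, with a median of -0.54. This median was -1.10 over members with no exon opposite and -0.22 with reads given to the opposite gene. It was -0.98 with all genes of any read tested and -0.99 with a minimum of 1 CPM in 3 libraries. Without normal sample 1 or 2 it was -0.90 or -0.93. Arc and Homer1, induced by neuronal activity, fell by 3.87 ± 0.69 and 2.10 ± 0.45. Of all genes tested 28.4% were lower and 24.1% higher. Oxidative phosphorylation genes changed little, with 5 of 15 lower (near that 28.4%, 2 common), 0 higher and a median of -0.33. The common members were Ndufs1 (opposite Eef1b2), which fell 1.79-fold and carried 2.05 log2 units higher when the reads were given to the opposite gene, and Atp5a1 (opposite Haus1), which fell 1.62-fold. The call of Ndufs1 was lost with all genes of any read tested (edgeR adjusted p = 0.0947), with a minimum of 1 CPM in 3 libraries (0.0562), without normal sample 1 (0.07) and without normal sample 3 (0.0985). That of Atp5a1 was lost with all genes of any read tested (0.0821) and without normal sample 1 (0.0565), both by edgeR. Glycolysis and hypoxia genes gave 4 higher (2 common) and 1 lower of 16 tested, with a median of 0.20. The higher count is near the 24.1% of all genes. Ldha, lactate dehydrogenase, rose 3.51-fold and Adm, a hypoxia-induced peptide, had a count ratio of 26.9 (exact 95% interval 4.73 to 1074). Of 9 cholesterol synthesis genes, Sqle alone was called, at 114 ± 9.82, 85.7 ± 2.04 and 49.0 ± 3.66 CPM.

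Some genes showed no shared change because the oncogenes lay on either side of normal brain. Trf, transferrin, had 29.1 ± 5.21 CPM in PDGFB, 302 ± 121 in RAS and 76.0 ± 20.5 in normal samples, so both together were not called (log2 0.30 ± 0.31) while the oncogenes differed (edgeR adjusted p = 8.4e-07). Htra1, a serine protease, gave 7.87 ± 4.64, 73.1 ± 37.1 and 26.1 ± 8.12 CPM, and Fam69c (opposite D030046N08Rik) the reverse order, 56.1 ± 24.0, 3.83 ± 1.94 and 11.7 ± 7.92 CPM. Genes whose shared log2 fold change was bounded within 0.5 either way by its 95% interval were few, 99 of 7722 (1.28%). Atp5b, a subunit of ATP synthase, had 161 ± 11.7, 198 ± 23.9 and 187 ± 24.8 CPM.

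Several points limit these values. Samples within a group are called replicates from their labels, and the 3 normal samples may come from fewer animals. The p-values rest on a single estimate of spread per gene over all 3 groups. They do not measure the spread of the normal samples alone. Counts simulated at these depths had 46 to 49 changed genes at each fold among 7020 genes, while 52.5% of genes were called here. In that setting 98% of 8-fold, 77.1% of 4-fold and 15.2% of 2-fold changes were recovered. These shares do not carry over to the real counts, where differences as small as that of Atp5a1 (log2 -0.70 ± 0.19) were called. How many small shared changes went uncalled is therefore not known.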

How the data were processed

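RNA-seq reads were counted per gene by the authors. The deposited table holds whole-number counts for 55416 genes in 13 libraries, as deposited by the authors. Reads were trimmed with fastp 0.22.0 and aligned with STAR 2.7.9a to GRCm38, per the submitters' processing notes. The annotation and strand setting are not given in the sources used here. RNA was extracted with Trizol and libraries were made with the TruSeq RNA kit, per the labels' protocols.

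Here, genes were filtered with filterByExpr (minimum count 10, minimum total 15), leaving 7722. Counts were TMM scaled (factors 0.908 to 1.11) and fitted with glmQLFit in edgeR 4.0.16 (R 4.3.3) with 3 groups over 13 libraries; the contrast was the mean of both tumor groups minus normal. Alternatives used limma 3.58.1 and DESeq2 1.42.0. Counting intervals are exact, at 95% confidence, and cover counting error only; a gene with no read in a group is bounded at 3 counts over that group. The analysis was tested on simulated data with known changes. Overlaps on the opposite strand come from GENCODE M21, which holds 52135 of the 55416 genes, and promoter sequences from RefSeq. Genes named by rule were the 12 higher and 12 lower common genes with the largest smaller-of-2-oncogenes change, no called difference between oncogenes, at least 20 CPM on the higher side, no opposite exon and no predicted-gene name; 6 and 6 by that rule with an opposite exon; 2 members per list; up to 6 genes called in opposite directions in the tumors; and the most abundant genes with an interval within 0.5. A few items that these rules name are not reported here. Other list members named in the text were chosen after their values were seen. Members and gene lists (31 lists, 515 of 516 entries matched) were chosen with earlier results of these data known. Same-numbered PDGFB and RAS samples did not deviate together (correlations -0.129 to 0.139).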

Additional observations from a re-analysis of the deposited data

Results flagged for a closer look

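Within groups of 5 tumors, 45 of 196 groups of values of the named genes had a sample far from the other 4 (Dixon's ratio above 0.71). A lone read among 4 libraries without any always passes this rule, and many genes share the same library. The count is therefore not set against a rate by chance. The flagged samples reported here are given below. The values are in CPM, with the range of the other 4 samples of that group in parentheses.

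RAS tumor 2 was the high sample for many genes that fell in tumors. It had 11.7 for Rph3a (0 to 1.75), 5.02 for Tmem130 (0), 6.69 for Elmod1 (0 to 1.76), 8.37 for Slc6a11 (0 to 1.75), 147 for Hipk4 (1.68 to 43.9), 5.02 for Ltk (0), 6.69 for Myocos (0 to 1.76), 6.69 for Scn9a (0 to 1.75), 6.69 for Krt12 (0 to 1.75) and 33.5 for Mhrt (0 to 5.45). It also had 60.3 for Aldoc (3.37 to 19.3), 112 for Slc1a2 (15.8 to 22.8), 70.3 for Snap25 (0 to 19.3), 38.5 for Nefh (1.68 to 8.78), 6.69 for Gabbr2 (0 to 1.82), 8.37 for Grin2b (0), 3.35 for Scn1a (0), 92.1 for Camk2a (1.68 to 9.09) and 13.4 for Arc (0 to 3.37). For Ifit2, which rose, it had 48.5 (8.41 to 19.3).

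RAS tumor 5 was high for H2-Ab1 with 91.3 (11.8 to 25.5), H2-D1 with 295 (89.2 to 109), Cd74 with 112 (10.5 to 36.8), Vcan with 108.8 (25.1 to 42.0), Npm1 with 319 (110.5 to 162) and Ptbp1 with 110.6 (45.2 to 57.8). PDGFB tumor 4 was high for Krt12 with 12.7 (0 to 1.55), Mal with 15.8 (1.52 to 3.25), Slc1a2 with 119 (29.0 to 53.7), Gabbr2 with 11.1 (0 to 1.63), Grin2b with 11.1 (0 to 1.60) and Cck with 9.50 (0 to 1.60). PDGFB tumor 3 was high for Serpina3n with 86.2 (59.0 to 64.0), Myocos with 1.63 (0) and Scn9a with 6.51 (1.52 to 1.60). PDGFB tumor 2 was the one with any read of Ttr, at 3.11, and of Myh7, at 1.55 (0 in the others). RAS tumor 1 had the lone reads of Myh7 and of Scn3b among RAS tumors, each at 1.68. LTO1 stood at 40852 in RAS tumor 3 (23795 to 26687), Gpnmb at 5.45 in the same tumor (23.6 to 30.1), H2-D1 at 73.8 in PDGFB tumor 5 (14.3 to 31.1), and Ltk at 0 in PDGFB tumor 1 (3.11 to 3.25).

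For 26 named genes the direct test of the oncogenes against each other was called (edgeR adjusted p under 0.05), values being log2 PDGFB minus RAS. PDGFB tumors were higher in Mcm2 (1.44), Cspg4 (1.84), Enpp2 (1.10), Adm (1.497), Fam69c (3.803) and Marcks (1.36). RAS tumors were higher in Hmga2 (-3.09), Nes (-1.03), Vim (-1.32), Gpnmb (-1.66), Lgals3 (-3.24), Olfml3 (-0.96), Sparc (-2.96), H2-D1 (-2.01), Cd74 (-3.40), Cd44 (-2.79) and Cdkn1a (-0.85). They were also higher in Rplp0 (-0.89), Eif5a (-0.72), Fdft1 (-1.59), Dmrt1i (-7.01), Htra1 (-3.18), Trf (-3.37), Pla2g7 (-2.79), Aldh2 (-2.75) and Clta (-0.81). Of these, Fdft1 lies opposite Ctsb, Dmrt1i opposite Baiap2l1, Pla2g7 opposite 1700071M16Rik and Aldh2 opposite Gm42879.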

How the results depend on the processing

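The counts of higher and lower genes stayed within 1.5 times of their reported values under the other scalings, filters and tools, in the settings not named here. With genes without an opposite exon alone, fewer genes were tested, and 775 were higher, 780 lower, 409 common higher, 596 common lower and 926 called between oncogenes. An adjusted p under 0.01 left 1465 between oncogenes. A test against a minimum of 2-fold left 800 higher, 1213 lower, 636 common higher and 599 between oncogenes. Leaving out 1 library at a time gave 1672 to 2186 higher, 1837 to 2167 lower, 1101 to 1307 common higher, 1606 to 1744 common lower and 2026 to 3043 between oncogenes. Without RAS tumor 2, the last count was 3043 and the higher count 2186. With library totals in place of TMM the median of all genes moved by 0.16 on the log2 scale, to 2242 higher and 1953 lower.

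The replicate numbers do not pair the tumors; with the replicate block 1705 genes were called between oncogenes, against 1829 in the same fit of the 10 tumors without it. No paired analysis was possible for tumors against normal because the normal samples carry no matching numbers. Of 98 named genes over 23 settings, 2199 values kept their call and direction, 7 lost the call (Sparc, Ndufs1 and Atp5a1), 4 gained it (Hras, Fdft1) and 2 reversed, Parpbp at 3.32 and Ndufs1 at 2.05, in the setting that hands reads over to the opposite gene, which is that setting's own construction. Of 690 list medians 39 moved, and the cholesterol list changed sign (0.15 to -0.01 and -0.02) in 2; the cause was not tested.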
